A study of Mus musculus with 4 samples.

Results

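CD8-negative T cells are the T cells in these crypt libraries in which no Cd8 transcript was captured, and 326 of the 13800 barcodes kept were of this kind. A barcode, which stands for 1 droplet and usually 1 cell, was kept when it held at least 500 unique molecular identifiers (UMIs, each standing for 1 captured transcript) and at least 300 genes, with at most 20% of its UMIs from mitochondrial genes. Members were chosen by measured transcripts: a barcode was a member when it held at least 2 UMIs over Cd3e, Cd3d, Cd3g, Trac, Trbc1 and Trbc2, which encode chains of the T cell receptor and its CD3 complex, and no UMI of Cd8a, Cd8b1 or the epithelial surface gene Epcam. The comparison class, CD8-expressing T cells, met the same conditions but held at least 1 UMI of Cd8a or Cd8b1, and 649 barcodes did. Since these 9 genes chose the cells, their own values are given as a description and were not tested.

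The study profiled crypts of the small intestine by droplet single-cell RNA-seq to look at intestinal stem cells in graft-versus-host disease (GVHD), in which donor immune cells attack the recipient's tissues. All recipients were C57BL/6 mice that had received lethal irradiation and then a bone marrow transplant, and crypts were taken 7 days later. The mice were female and 8 to 12 weeks old. Syngeneic recipients, the controls (2 libraries), received marrow from C57BL/6 donors, so donor and recipient matched. Allogeneic recipients (2 libraries), the GVHD group, received marrow from BALB/c donors. Every library pooled 3 to 4 mice, so a library is the replicate, n is 2 per group, and differences between single animals cannot be seen. The library titles also begin with KO, which the labels leave unexplained. The labels call the cells crypt epithelial cells, so the T cells are a minor population in an epithelial preparation, and whether a T cell came from the donor or the recipient was not determined. In the order syngeneic 1, syngeneic 2, allogeneic 1, allogeneic 2, which all lists of 4 values below follow, the kept barcodes numbered 3036, 2750, 2443 and 5571.

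T cells that lack CD8 include the CD4 lineage, whose members are known as helper cells that act mainly through cytokines and as regulatory cells that restrain responses. They also include gamma-delta T cells, which carry a receptor of gamma and delta chains in place of alpha and beta chains and are known to be common within the intestinal epithelium, where many of them hold granzymes. In acute GVHD, donor T cells are known to enter the gut, where both cytotoxic proteins and cytokines reach the epithelium.

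The members numbered 27, 38, 143 and 118, and the CD8-expressing T cells 47, 76, 280 and 246. Summed over each library's members, the gene counts came to 18508, 28334, 152083 and 123785 UMIs, against 31860, 71242, 432741 and 310244 for the CD8-expressing class, so the syngeneic members are the most thinly measured. A member held a median of 611, 665.5, 798 and 850.5 UMIs, compared with 612, 731, 1080.5 and 1002.5 for CD8-expressing cells and 3525 to 4339 for all kept barcodes. The members were therefore shallow cells, close to the minimum of 500 UMIs: they ranged from 502 to 3793 UMIs and 76 held fewer than 600. At the edge of the rule, 23 members held exactly 2 receptor UMIs, while 14 barcodes that met the other conditions held exactly 1 and stayed out. Of 44 T cell barcodes without Cd8 that were left out for an Epcam UMI, 13 had exactly 1. No member shared its barcode sequence with a member of another library, although 24 barcodes did so among all those kept.

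The share of T cells without a Cd8 UMI depended on depth, which limits what the class name can carry. It was 41.1% among T cells of 500 to under 750 UMIs (155 of 377, exact 95% binomial interval 36.1 to 46.3), 37.0% at 750 to under 1000 UMIs (71 of 192), 25.2% at 1000 to under 2000 (70 of 278) and 23.4% at 2000 or more (30 of 128, interval 16.4 to 31.7). The fall was seen within the allogeneic libraries, from 50.8% to 23.2% in allogeneic 1 and from 35.4% to 24.1% in allogeneic 2. In the class that did show Cd8, 239 of 649 cells did so by 1 UMI alone, and the median was 2 Cd8 UMIs. How many members are CD8 T cells whose Cd8 transcripts were not captured was not tested, so values below are those of cells without a Cd8 UMI, and not of a pure lineage. The binomial intervals cover counting error only.

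**Figure D1:**
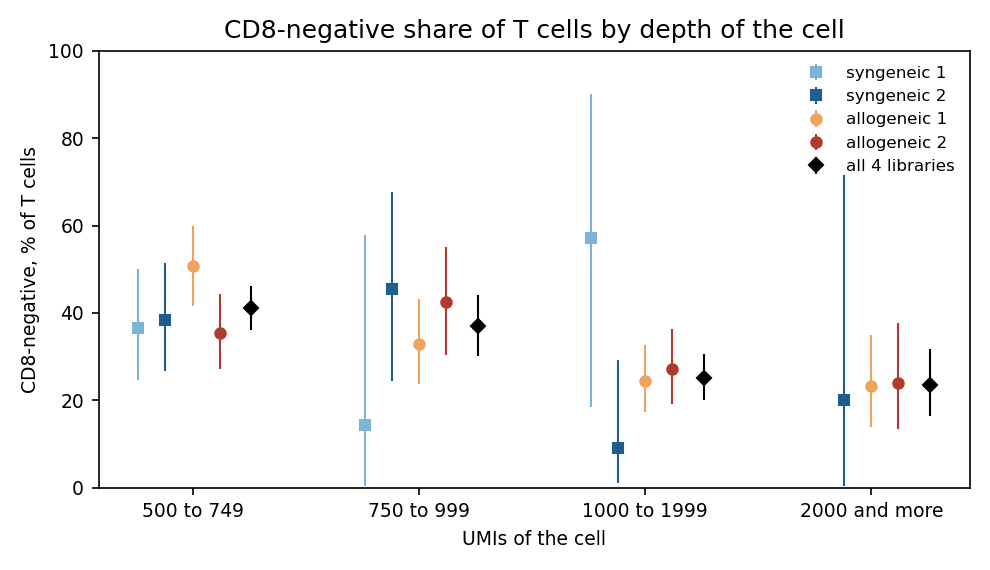
Share of T cells with no Cd8a or Cd8b1 UMI (vertical axis, percent) by UMIs per barcode (horizontal axis, 4 bands), with squares for syngeneic libraries, circles for allogeneic libraries, diamonds for all 4 together and bars for exact 95% binomial intervals. Over all libraries the share went from 41.1% in the shallowest band to 23.4% in the deepest.

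Members made up 0.889%, 1.38%, 5.85% and 2.12% of kept barcodes, with exact intervals of 0.587 to 1.29, 0.980 to 1.89, 4.96 to 6.86 and 1.76 to 2.53. Both allogeneic libraries stood above both syngeneic ones, and the 2 allogeneic libraries differed from each other by more than the higher syngeneic library did from the lower of them. The mean was 1.14% ± 0.348 (SD, n = 2) in syngeneic and 3.99% ± 2.64 (SD, n = 2) in allogeneic libraries, and a 2-sided exact permutation test gave p = 0.333, the smallest value that 2 against 2 libraries allow. Among T cells the share of members varied far less. It was 36.5%, 33.3%, 33.8% and 32.4%, a difference of means of -1.80 percentage points (2-sided exact permutation p = 0.667). These are shares of captured barcodes of an epithelial preparation, so a change in the epithelium would move the first share as well.

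Cd4, the co-receptor of helper and regulatory T cells (chromosome 6, 124864692 to 124888221, GRCm38), was captured in 1, 0, 7 and 13 members, 21 cells or 6.44% in all. By library this was 3.70%, 0%, 4.90% and 11.0% of members, against 0%, 0%, 0.357% and 0.407% of CD8-expressing T cells. Cd4-positive members were thus nearly all from the allogeneic libraries, where 20 of the 21 and 261 of all 326 members lay. In Epcam-positive barcodes, which should lack Cd4 and were far deeper, 0% to 0.0532% held a Cd4 UMI. With every cell thinned to 1000 UMIs the expected shares were 0%, 0%, 6.07% and 12.3% of members, against 0%, 0%, 0.351% and 0.383% of CD8-expressing cells. The mean difference over the 4 libraries was 4.41 percentage points (2-sided exact sign permutation p = 0.50, where 4 pairs allow 0.125 at the least). Only 4, 3, 49 and 44 members reached 1000 UMIs, so a share of 0 in the syngeneic libraries says little.

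Trdc, the constant segment of the receptor's delta chain (chromosome 14, 54142851 to 54148868), gave a different order of libraries. It was captured in 8, 9, 31 and 1 members, which is 29.6%, 23.7%, 21.7% and 0.847% of them and 49 cells in all. Allogeneic 2 stood apart with 1 Trdc-positive member among 118, while allogeneic 1 was near the syngeneic libraries. CD8-expressing cells held a Trdc UMI in 6.38%, 7.89%, 16.8% and 1.63%, so the class without Cd8 was higher in 3 of 4 libraries. Thinned to 1000 UMIs, the shares were 45.3%, 58.2%, 13.2% and 2.27% of members against 20.6%, 4.13%, 12.3% and 0%, a mean difference of 20.5 percentage points with the same direction in 4 of 4 libraries (2-sided exact sign permutation p = 0.125, the smallest possible). Adjusted over the 4 share comparisons by Benjamini-Hochberg, these permutation p-values were 0.50 for Trdc and 0.667 for the other 3. The syngeneic values at 1000 UMIs rest on the few members deep enough to be thinned, and the allogeneic 2 value on 1 Trdc-positive member. In allogeneic 2 the direction reversed when all cells were thinned to 500 UMIs, to 0.821% of members against 1.27% of CD8-expressing cells. The other libraries kept their direction at 500 UMIs. The same direction in all libraries thus held at 1000 UMIs and not at 500 UMIs or without thinning. In Epcam-positive barcodes 0% to 0.0785% held a Trdc UMI.

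No member held both Cd4 and Trdc, and 256 of 326 (78.5%) held neither. Any of the gamma-chain constant segments Tcrg-C1, Tcrg-C2 and Tcrg-C4, which are similar in sequence so that reads may be split among them, was captured in 135 members (41.4%) and in 309 CD8-expressing cells (47.6%). Gamma-chain transcripts thus did not separate the classes, and 33 of the 49 Trdc-positive members held one. The Trac UMIs that could choose a member were present in 33.3%, 34.2%, 44.8% and 73.7% of members. Allogeneic 2 was the library with the most Trac-positive and the fewest Trdc-positive members. Of the Trdc-positive members, 14 held no UMI of Trac, Trbc1 or Trbc2 and entered by CD3 genes alone.

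**Figure D2:**
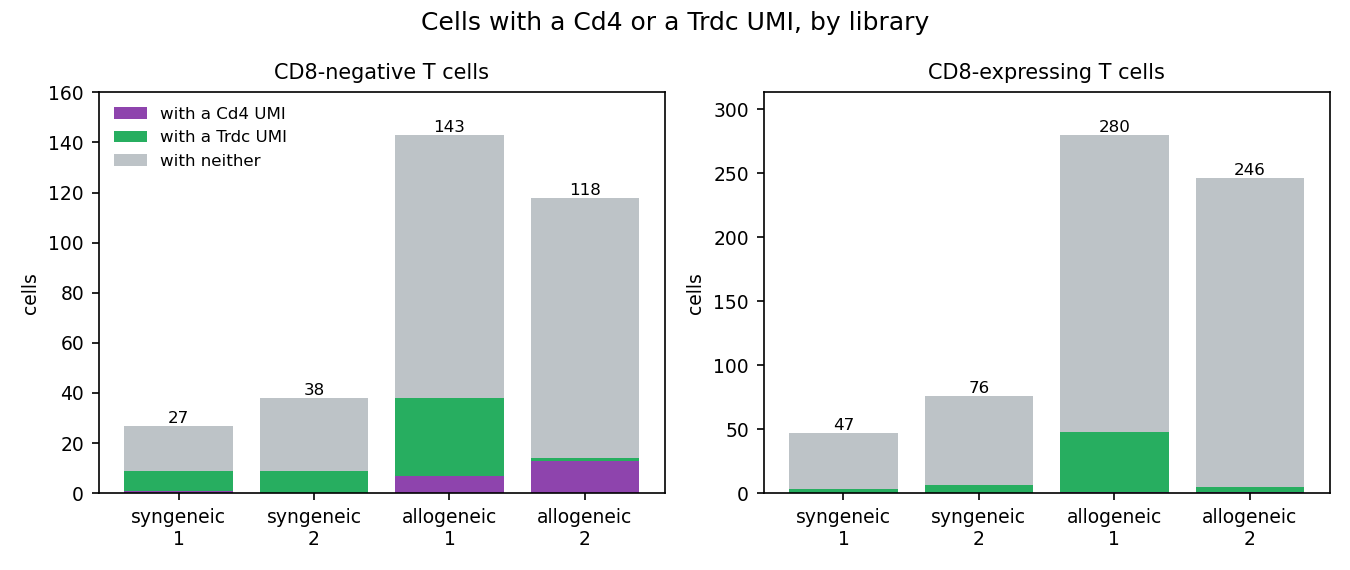
Number of CD8-negative T cells (left) and CD8-expressing T cells (right) in each of the 4 libraries. Stacked bars split them into cells with a Cd4 UMI, with a Trdc UMI and with neither, and the total stands above each bar. Cd4 reached 11.0% and Trdc 0.847% of members in allogeneic 2, while Trdc was at 21.7% to 29.6% in the other 3 libraries.

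Members held less granzyme A transcript than CD8-expressing cells of the same libraries, while most members still held a granzyme. Over all 4 libraries, with the library as a block and UMIs summed per class, edgeR called 21 of 1514 tested genes at an adjusted p under 0.05, which is 1.39% (0.991% higher and 0.396% lower in members). The count rested on the allogeneic libraries: it was 0 without allogeneic 1 (60 at an unadjusted p under 0.05) and 4 without allogeneic 2, against 52 without syngeneic 1 and 40 without syngeneic 2, and DESeq2 called Apoa1 alone. Of the 12 cytotoxic effector genes tested, 1 was lower and none higher, with a median log2 difference of -0.27 beside -0.01 over all genes. That gene was Gzma, granzyme A, a serine protease of cytotoxic granules (chromosome 13, 113093825 to 113100981). Its level in members was 18749, 29646, 17458 and 6414 CPM (UMIs of a gene per 1000000 UMIs of the class in that library), against 31638, 29898, 22360 and 13818 in CD8-expressing cells. Members were lower in 4 of 4 libraries, by little in syngeneic 2 and most in allogeneic 2. The log2 difference was -0.54 (SE 0.13, edgeR adjusted p = 0.0372). It lost the call when syngeneic 1, allogeneic 1 or allogeneic 2 was left out, where it ranged from -0.60 to -0.35.

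Gzmb, granzyme B, which triggers death of target cells, had 3836, 7023, 3879 and 3579 CPM in members and 4959, 6990, 5125 and 6131 in CD8-expressing cells. It was lower in 3 of 4 libraries and missed the threshold over all 4 (log2 difference -0.40, edgeR adjusted p = 0.0555), as did the pore-forming protein gene Prf1 (-1.34, edgeR adjusted p = 0.0541). Granzymes were nevertheless common in the class. A UMI of Gzma or Gzmb was found in 17, 29, 93 and 74 members, that is 63.0%, 76.3%, 65.0% and 62.7%, compared with 78.7%, 73.7%, 88.2% and 88.6% of CD8-expressing cells. The granule gene Nkg7 (-0.28, edgeR adjusted p = 0.254) and the chemokine Ccl5 (-0.37, edgeR adjusted p = 0.261) did not pass.

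Higher in members over the 4 libraries was Il7r, the receptor chain for interleukin-7, a survival factor of resting and memory T cells (chromosome 15, 9505788 to 9530176). Members held 216, 106, 322 and 145 CPM and CD8-expressing cells 62.8, 14.0, 136 and 41.9. The members were higher in 4 of 4 libraries although levels overlapped between classes across libraries, and the log2 difference was 1.45 (SE 0.27, edgeR adjusted p = 0.00191). The syngeneic levels rest on only a few UMIs in each class, so their direction says little. Il7r was the gene of the naive and memory list that rose, 1 of 2 tested. Trdc itself was higher by 1.14 (SE 0.25, edgeR adjusted p = 0.012), with 810, 459, 335 and 48.5 CPM against 188, 168, 178 and 29.0. It was 1 of 4 gamma-delta genes tested, and Tcrg-C1 (-0.01), Tcrg-C2 (-0.20) and Tcrg-C4 (-0.04) did not pass. In sums over cells such as these, fewer cells of a type and less RNA per cell cannot be told apart.

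Among 12 early-response and heat-shock genes tested, Junb and Nr4a1 rose and none fell, with a median of 0.46. The 16 genes of that list summed to 11292, 8506, 8127 and 6422 CPM in members and 11174, 8506, 6313 and 5247 in CD8-expressing cells. The sums were thus nearly equal in the syngeneic libraries and higher in members of the allogeneic ones. Nr4a1, a nuclear receptor induced by receptor engagement, was higher by 0.98 (edgeR adjusted p = 0.0284). Outside that list, Ier5 rose by 1.08 (SE 0.24, edgeR adjusted p = 0.012) and Fosl2, a subunit of the AP-1 transcription factor, by 0.99 (edgeR adjusted p = 0.0372), a call lost in 8 of 12 alternatives. Ier5 stood at 108, 282, 460 and 307 CPM in members and 377, 84.2, 199 and 132 in CD8-expressing cells, so syngeneic 1 went the other way. Pdcd4 (0.88, edgeR adjusted p = 0.026), Emb, Gadd45b, Nfkbia and mt-Co1 were further genes that rose.

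Of the interferon-inducible genes, Ifi27l2a and Ifitm3 were higher in members, while Ifitm1 was lower in the allogeneic libraries. Ifi27l2a had 54.0, 141, 585 and 800 CPM against 62.8, 140, 263 and 206, so the classes differed in the allogeneic libraries and barely in the syngeneic ones (log2 difference 1.42, SE 0.21, edgeR adjusted p = 2.81e-05). Ifitm3 was at 0 in both syngeneic libraries in both classes and at 559 and 1664 in allogeneic members, against 354 and 577 (log2 difference 1.15, SE 0.19, edgeR adjusted p = 0.000244). Ifitm1 stood at 447 and 2141 CPM in allogeneic members against 952 and 2637, a difference of -0.60 that passed in the allogeneic libraries (SE 0.12, edgeR adjusted p = 0.000209) and not over all 4 (-0.60, edgeR adjusted p = 0.0555). Ifi27l2a was the gene of the 10 tested interferon-response genes that passed, and the list's median was 0.05.

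Lower in members beside Gzma were Mt1, a metallothionein (-1.04, edgeR adjusted p = 0.0372), and the cytokine Mif (-0.77, edgeR adjusted p = 0.0153). Mif stood at 162, 388, 335 and 477 CPM in members and 534, 618, 672 and 661 in CD8-expressing cells, without overlap. The other genes that fell were Ran (-0.67, edgeR adjusted p = 0.0157), a carrier of nuclear transport, and the nucleolar genes Ncl (-0.67, edgeR adjusted p = 0.0392) and Npm1 (-0.52, edgeR adjusted p = 0.0316). The calls were lost in 8 of 15 alternatives for Ncl, and in 6 of 15 each for Ran and Npm1. None of 11 proliferation genes passed over the 4 libraries, where Mki67, a marker of dividing cells, differed by 0.03 and the list's median was -0.39.

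Epithelial transcripts moved with the class and limit some of these calls. Apoa1, an apolipoprotein gene of enterocytes, was the gene with the largest difference over the 4 libraries (log2 difference 1.93, SE 0.22, edgeR adjusted p = 3.57e-07), and the enterocyte fatty-acid-binding gene Fabp2 also rose (0.98, edgeR adjusted p = 0.0163). For Apoa1 a single allogeneic 1 cell held 38 of 61 UMIs and a single allogeneic 2 cell 43 of 77. The summed level of 12 epithelial genes was 1189, 459, 355 and 1139 CPM in members and 471, 632, 208 and 342 in CD8-expressing cells, and 12, 11, 29 and 40 members held at least 1 such UMI. The 12 secreted epithelial genes used as a gauge of free RNA summed to 2431, 1306, 868 and 1042 against 1758, 1095, 342 and 577. With every cell that held a UMI of the 12 epithelial genes left out of both classes, 23 genes were called in place of 21. These were not all the same genes, and 896 genes were tested in place of 1514. Of the genes named for the 4 libraries, 11 had a value there, of which 7 kept the call and 4 lost it. The remaining named genes could not be tested. Markers of other cells were near 0: hemoglobin genes had no UMI in any member, and the B and plasma cell list had 5, 5, 5 and 3 UMIs, the mast cell list 2, 3, 8 and 4 and the stromal list 0, 1, 7 and 2. The myeloid list had 26, 98, 175 and 52 UMIs, but it includes Fcer1g and Tyrobp, which T and NK cells of the epithelium also express.

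In a fit of the allogeneic libraries alone, where most of the cells were, 4 cytokine genes and the chemokine gene Ccl1 were called higher in members. There edgeR called 68 of 3446 genes (1.97%), 45 higher (1.31%) and 23 lower (0.667%). Of 17 listed cytokine genes 7 could be tested, and of these Csf2, Tnfsf11, Ifng and Areg rose and none fell. The median of the 7 was 1.10 beside 0.00 over all genes. Csf2 and Tnfsf11 met the low-count filter by their level in members alone, so the count and the median are a description only. Among the 4 genes that rose, Ifng was not higher in allogeneic 1. Many Csf2 and Areg UMIs came from single cells, as given below. Of 5 chemokines tested, Ccl1 rose and none fell, with a list median of -0.06, and the chemokines' summed level was 15643 and 5146 CPM in members against 14771 and 7913. With 2 libraries and 1 residual degree of freedom per gene the spread behind these p-values is nearly all borrowed across genes, and DESeq2 called 6 genes and edgeR without the library block 0. With the library as a block, the p-values measure how far the class difference varied between these pooled libraries, and not how far levels varied between them.

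Lgals7, which encodes the secreted sugar-binding protein galectin-7 (chromosome 7, 28863853 to 28866284), was the most significant of them. Allogeneic members held 49 and 92 Lgals7 UMIs in 12 and 31 cells, and the larger CD8-expressing class held 5 and 9 UMIs in 2 and 5 cells. In CPM this was 322 and 743 against 11.6 and 29.0, with no overlap, and neither syngeneic library had a UMI in members. The log2 difference was 4.69 (SE 0.32, edgeR adjusted p = 1.2e-43; DESeq2 adjusted p = 4.02e-13). No cell dominated it, the largest holding 11 UMIs in allogeneic 1 and 18 in allogeneic 2. Epcam-positive barcodes held a Lgals7 UMI in 0.0602% to 0.266%.

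Csf2, which encodes the growth factor GM-CSF that acts on myeloid cells, had 25 and 36 UMIs in 3 and 9 allogeneic members, against 6 and 0 UMIs in CD8-expressing cells (log2 difference 4.68, SE 0.48, edgeR adjusted p = 8.61e-19). Few cells carried it: 1 cell held 18 of the 25 UMIs in allogeneic 1, and 1 cell held 14 of the 36 in allogeneic 2, and DESeq2 did not call it (adjusted p = 1.0). Ccl1, a chemokine that attracts cells bearing CCR8, had 79 and 99 UMIs in 14 and 16 members and 30 and 42 in 6 and 18 CD8-expressing cells. That was 519 and 800 CPM against 69.3 and 135, a log2 difference of 2.71 (SE 0.22, edgeR adjusted p = 5.13e-30; DESeq2 adjusted p = 1.62e-08). Tnfsf11, the gene of RANK ligand, a cytokine of the tumor necrosis factor family, had 14 and 24 UMIs in 6 and 18 members against 3 and 5 (log2 difference 3.58, SE 0.48, edgeR adjusted p = 3.78e-11; DESeq2 adjusted p = 0.0267). The levels of both classes are drawn per library in the plot of gene levels.

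Because Csf2, Ccl1 and Tnfsf11 were each called higher in members, the 250 bases before each gene's start in RefSeq (build GRCm38.p6) are shown, 5′ to 3′ along the gene's strand, with capitals marking GGAAA or its complement TTTCC, the core letters bound by NFAT factors, which T cell receptor signals are known to activate. All lie on the minus strand: Csf2 at chr11:54249900-54250149, Ccl1 at chr11:82179813-82180062 and Tnfsf11 at chr14:78308044-78308293.
Csf2: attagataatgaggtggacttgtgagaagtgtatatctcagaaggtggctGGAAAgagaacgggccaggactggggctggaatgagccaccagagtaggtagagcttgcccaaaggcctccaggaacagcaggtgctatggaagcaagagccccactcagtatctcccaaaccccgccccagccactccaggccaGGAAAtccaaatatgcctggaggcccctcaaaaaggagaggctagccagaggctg
Ccl1: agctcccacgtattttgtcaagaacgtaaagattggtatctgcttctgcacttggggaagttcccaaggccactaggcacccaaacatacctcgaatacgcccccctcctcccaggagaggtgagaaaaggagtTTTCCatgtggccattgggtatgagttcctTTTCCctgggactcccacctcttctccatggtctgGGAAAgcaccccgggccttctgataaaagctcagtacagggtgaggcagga
Tnfsf11: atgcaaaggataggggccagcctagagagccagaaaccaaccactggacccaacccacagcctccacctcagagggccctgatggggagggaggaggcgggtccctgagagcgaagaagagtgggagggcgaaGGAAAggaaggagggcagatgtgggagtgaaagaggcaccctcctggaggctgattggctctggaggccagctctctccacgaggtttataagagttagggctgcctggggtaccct
The motif was found on either strand 2 times before Csf2, 3 times before Ccl1 and 1 time before Tnfsf11. It was present in 55.6% of 32851 promoter windows of the same length, so its presence does not set these genes apart. TGANTCA, the core bound by AP-1 factors, was in 6.75% of all windows and in 0 of these 3. The RefSeq start of Csf2 lies 232 bases upstream of the GENCODE start, that of Ccl1 lies inside a longer GENCODE gene, and the starts of Tnfsf11 coincide. A match is a string of letters and not a measured binding site.

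Ifng, the gene of interferon-gamma, the main cytokine of type 1 responses (chromosome 10, 118441046 to 118445892), stood at 108, 176, 178 and 1155 CPM in members and 94.2, 56.1, 201 and 406 in CD8-expressing cells. Allogeneic 2 members were far above the rest, allogeneic 1 members were slightly below their CD8-expressing cells, and 1 cell held 51 of 143 UMIs in allogeneic 2. It passed in the allogeneic libraries (log2 difference 0.93, SE 0.20, edgeR adjusted p = 0.000495), but not over all 4 (0.94, edgeR adjusted p = 0.0632) or by DESeq2 (adjusted p = 1.0). Areg, the gene of the epithelial growth factor amphiregulin, passed as well (1.55, edgeR adjusted p = 0.00367), although 1 cell held 11 of 15 and another 20 of 32 of its UMIs. Tnf did not pass (1.10, edgeR adjusted p = 0.314). Il17a, the cytokine of type 17 helper cells, had 0, 0, 2 and 7 UMIs in members, Il2, a T cell growth factor, 1, 0, 3 and 0, and Il22 had 0, so their levels could not be compared at this depth.

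**Figure D3:**
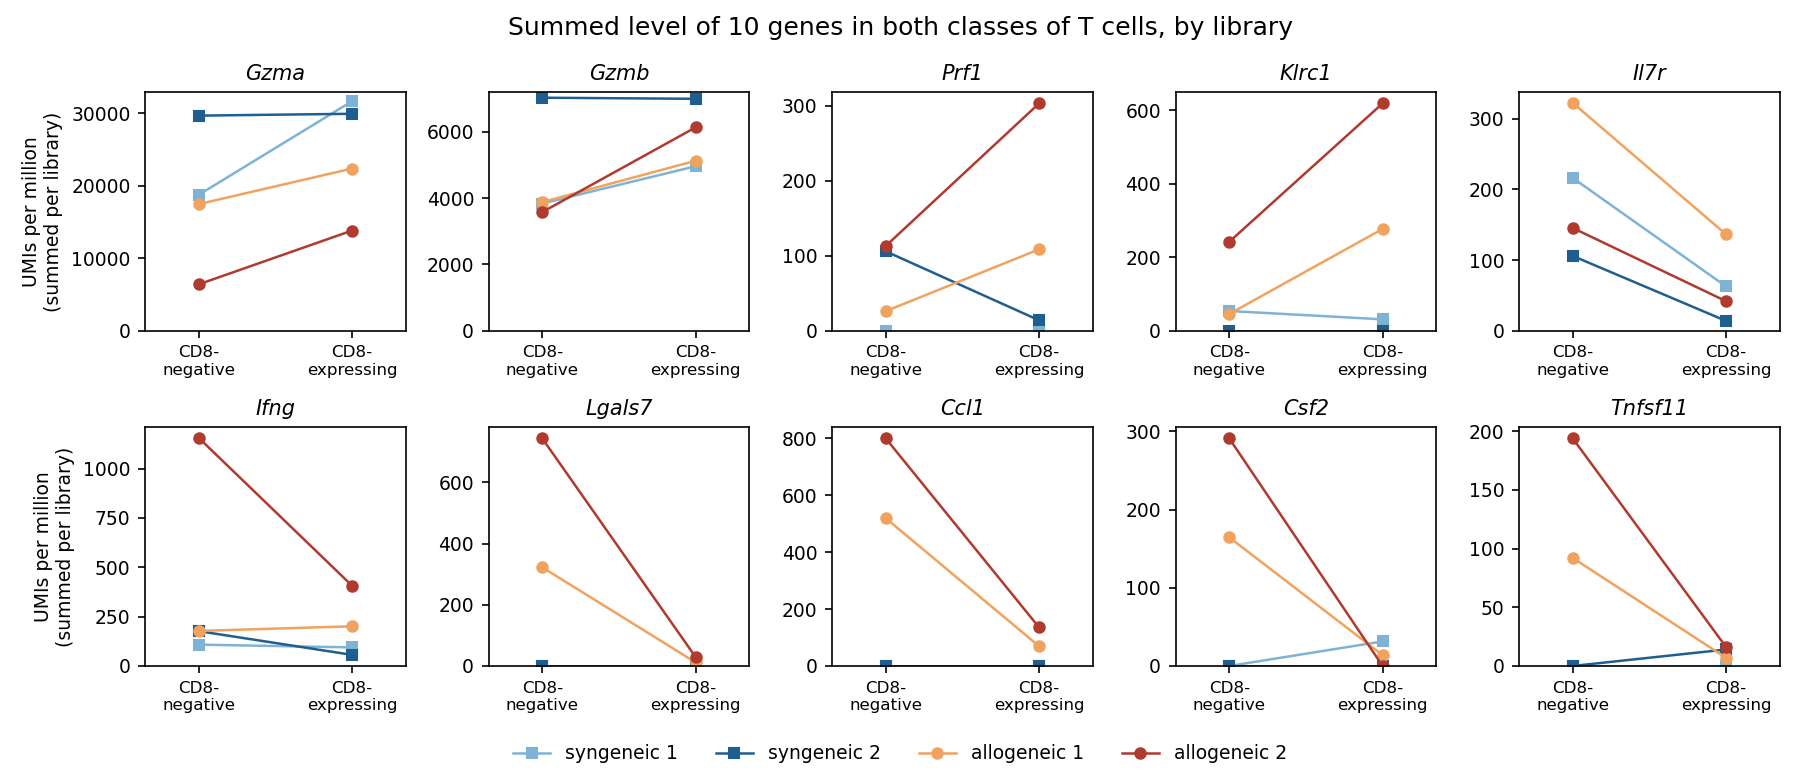
Level of 10 effector and receptor genes in CD8-negative and CD8-expressing T cells of each library, in CPM of the class, with a line joining the classes of 1 library. Lgals7, Ccl1, Csf2 and Tnfsf11 were higher in members of both allogeneic libraries and at 0 in syngeneic members, while Gzma was lower in members of 4 of 4 libraries.

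Cd4 itself was among the genes higher in allogeneic members. It had 9 and 16 UMIs against 1 and 1 (log2 difference 4.80, SE 0.79, edgeR adjusted p = 4.16e-07; DESeq2 adjusted p = 0.114), and was 1 of 3 CD4-lineage genes tested. Cd4 too met the low-count filter by its level in members alone. Of 5 regulatory T cell genes tested, Tnfrsf4 passed, which encodes the costimulatory receptor OX40 and is also induced on activated helper cells. It had 14 and 26 UMIs in 9 and 19 members against 12 and 10 UMIs (2.24, edgeR adjusted p = 1.34e-05; DESeq2 adjusted p = 0.767). Foxp3, which defines regulatory T cells, had no UMI in any of the 326 members, which allows a share of up to 0.920% of cells with a UMI. Penk, the gene of the opioid precursor proenkephalin, had 12 and 10 UMIs in 3 and 7 members and 0 in CD8-expressing cells, at least 19.8-fold higher when the latter are set to 3 counts over the group. Il1r2, a decoy receptor for interleukin-1, had 7 and 10 UMIs against 1 and 0 (5.06, edgeR adjusted p = 0.00111).

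Further genes with large increases were Tbc1d4 (3.56, edgeR adjusted p = 3.35e-05), Rbp2 (2.84, edgeR adjusted p = 0.0151) and Timp2 (2.51, edgeR adjusted p = 0.025). Rbp2 is a retinol-binding gene of enterocytes, and with Fabp2, Lgals4 and Apoa1 it is an epithelial transcript among the genes that rose. Of 10 T cell transcription factors tested, Maf (2.02, edgeR adjusted p = 0.0179), a factor of several helper subsets, and Nr4a1 (1.02, edgeR adjusted p = 0.0097) rose. Tbx21, the factor of type 1 responses, did not pass (0.63, edgeR adjusted p = 0.691). Of 13 activation and checkpoint receptors, Il7r (1.38, edgeR adjusted p = 0.000426) and the early activation marker Cd69 (0.80, edgeR adjusted p = 0.0116) rose. Among cells of at least 1000 UMIs neither Il7r (adjusted p = 0.0886) nor Ifng (adjusted p = 0.689) was called by edgeR.

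In the allogeneic libraries 3 cytotoxic effector genes and 2 NK receptor genes were lower in members. Of 14 cytotoxic effectors tested, Gzma (-0.72, SE 0.11, edgeR adjusted p = 3.68e-08), Gzmb (-0.59, SE 0.11, edgeR adjusted p = 2.56e-05) and Prf1 (-1.59, SE 0.35, edgeR adjusted p = 0.000815) fell and none rose, with a median of -0.25. Prf1 had 26.3 and 113 CPM in members against 109 and 303. Gzmk (-1.0, edgeR adjusted p = 0.0663) and Fasl (-0.21), the gene of the death-inducing Fas ligand, did not pass. Of 8 NK receptor genes tested, Klrc1 and Klrc2 fell. They encode the related receptors NKG2A and NKG2C and are similar in sequence, so that their reads may be split. Klrc1 had 7 and 30 UMIs in members and 120 and 192 in CD8-expressing cells, or 46.0 and 242 CPM against 277 and 619. The members of allogeneic 2 came near the CD8-expressing cells of allogeneic 1, but within each library the members were lower (log2 difference -1.72, SE 0.25, edgeR adjusted p = 2.18e-09; DESeq2 adjusted p = 0.0933). Klrc2 had 0 and 10 UMIs against 38 and 56 (-1.86, edgeR adjusted p = 0.00613).

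Klrk1 (-0.84, edgeR adjusted p = 0.0757), which encodes the activating receptor NKG2D, and Klrd1 (-0.14 over the 4 libraries) did not pass. Gzmf, a further granzyme, was lower (-2.96, edgeR adjusted p = 0.000815), but 28 of its 30 UMIs in allogeneic 1 came from 1 CD8-expressing cell. Tmem248 (-2.46), Abcb9 (-1.85), Rfc2 (-1.22), Mt1 (-1.12) and Cbx3 (-0.96) were also lower. Of 14 proliferation genes, the tubulin gene Tubb5 fell (-0.52, edgeR adjusted p = 0.00849) and none rose, with a median of -0.38. No gene of 14 receptor-signalling genes (median 0.20), 13 homing and adhesion genes or 5 gamma-delta genes passed in the allogeneic libraries.

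**Figure D4:**
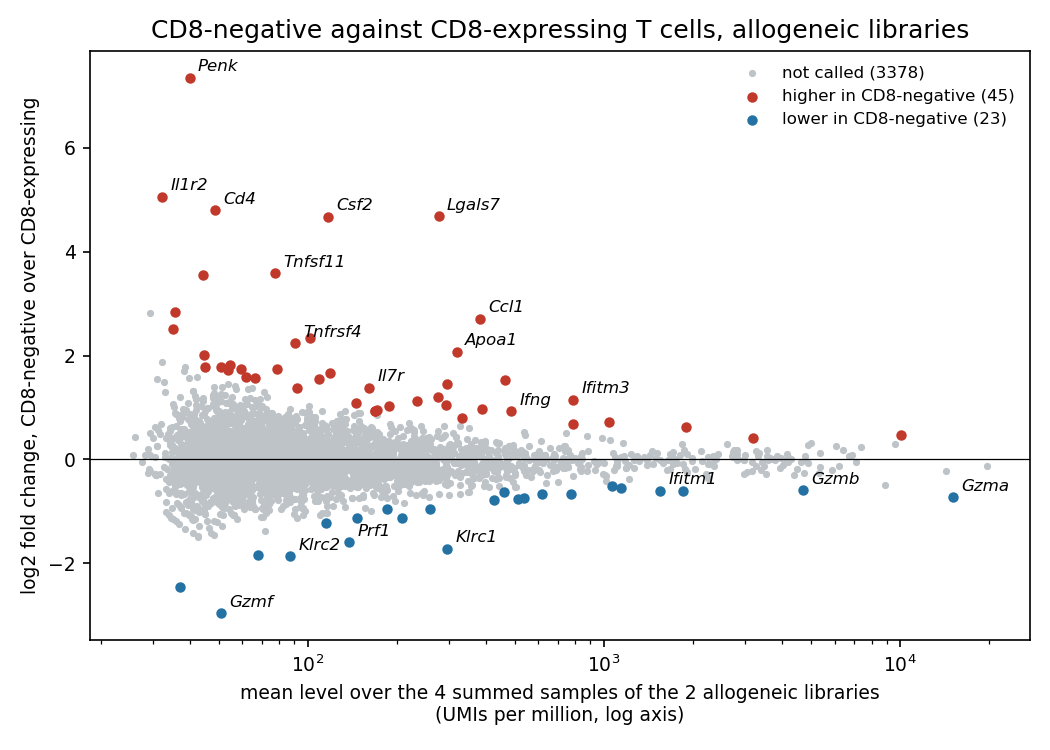
Log2 difference of CD8-negative minus CD8-expressing T cells in the allogeneic libraries (vertical axis) by mean level in CPM (logarithmic horizontal axis), 1 point for each of 3446 genes tested. The 45 genes higher and 23 lower at an edgeR adjusted p under 0.05 are coloured, with Lgals7, Csf2 and Ccl1 among the former and Klrc1, Prf1, Gzma and Gzmb among the latter.

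Leaving out cells with an epithelial UMI changed some of these calls. Lgals7 (4.44, edgeR adjusted p = 3.84e-22), Tnfsf11 (3.68, edgeR adjusted p = 2.66e-07), Tnfrsf4 (2.84), Prf1 (-2.31), Klrc1 (-1.70) and Gzma (-0.62) passed without those cells. Ccl1 did not (3.01, edgeR adjusted p = 0.773), nor did Ifng (0.31, edgeR adjusted p = 0.751), and Csf2 and Cd4 were then too low to be tested. The UMIs left were 32 and 42 against 1 and 8 for Lgals7, and 77 and 35 against 5 and 32 for Ccl1. For Csf2 they were 25 and 2 against 4 and 0, and for Cd4 6 and 12 against 1 and 1. In allogeneic 2 members most Lgals7, Csf2 and Ccl1 UMIs lay in cells that also held epithelial UMIs. So did most Ccl1 UMIs of the CD8-expressing cells of allogeneic 1, which had 30 before. The part that doublets or free RNA had in this was not tested.

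How far Lgals7, Csf2, Ccl1 and Tnfsf11 were captured in the same cells is given as a description, since these genes chose the cells. At least 1 UMI of Lgals7, Csf2, Ccl1 or Tnfsf11 was found in 0, 0, 23 and 39 members, which is 16.1% and 33.1% of those of the allogeneic libraries, and in 1, 1, 14 and 25 CD8-expressing cells. At least 2 of the 4 genes were found in 0, 0, 9 and 22 members and in 0, 0, 1 and 1 CD8-expressing cells, so 31 of the 62 members with any held more than 1. Of the 62 members with any of the 4 genes, 20 (32.3%) held Gzma, 5 (8.06%) Gzmb and 8 (12.9%) Ccl5. Of the other 199 allogeneic members, 130 (65.3%) held Gzma, 122 (61.3%) Gzmb and 148 (74.4%) Ccl5. The 62 cells were the deeper ones, with a median of 1174 UMIs against 750. More of them came from allogeneic 2 (39) than from allogeneic 1 (23), so this contrast is also one between libraries. Over all members of allogeneic 1 and allogeneic 2, Ccl5 stood at 13657 and 2666 CPM and Fcer1g at 704 and 145. Trdc was captured in 31 and 1 of these members. The parts of depth and of library in the shares of this paragraph were not tested. Ifitm3 was held by 48 of the 62 cells (77.4%) and by 40 of the 199 (20.1%), Cd4 by 13 of the 62 (21.0%), and Trdc, Itgae and Fcer1g by 0 of the 62, against 32, 29 and 55 of the 199.

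Split by receptor, the members fell into cells of unlike content. The 49 Trdc-positive members held Ccl5 in 41 cells (83.7%), Fcer1g, a signalling adaptor of innate-like lymphocytes, in 20 (40.8%), Gzma in 24 and Gzmb in 21, and none held Lgals7, Csf2, Ccl1, Tnfsf11, Klrc1 or Ifitm3. The 21 Cd4-positive members held Lgals7 in 9 cells (42.9%), Ifitm3 in 14 (66.7%), Gzma in 7 (33.3%) and Gzmb in 3 (14.3%), and none held Fcer1g, Tyrobp or Klrc1. Trdc-positive cells came from all 4 libraries and Cd4-positive cells almost entirely from the allogeneic ones, so this contrast is also one between libraries, and the Cd4-positive cells were deeper, with a median of 1211 UMIs against 756. The 209 allogeneic members with neither gene, at a median of 797 UMIs, held Gzma in 126 (60.3%), Gzmb in 111 (53.1%), Klrc1 in 23 and Lgals7 in 34. The 526 allogeneic CD8-expressing cells, at a median of 1051 UMIs, held Gzma in 436 (82.9%), Gzmb in 406 (77.2%), Klrc1 in 173 (32.9%) and Lgals7 in 7. Members with neither gene thus lay between the Cd4-positive members and the CD8-expressing cells in granzyme detection, as captured at these unlike depths. The libraries also weighed differently. Allogeneic 1 and allogeneic 2 gave 7 and 13 Cd4-positive members, and 105 and 104 members with neither gene. The parts of depth and library in this order were not tested.

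**Figure D5:**
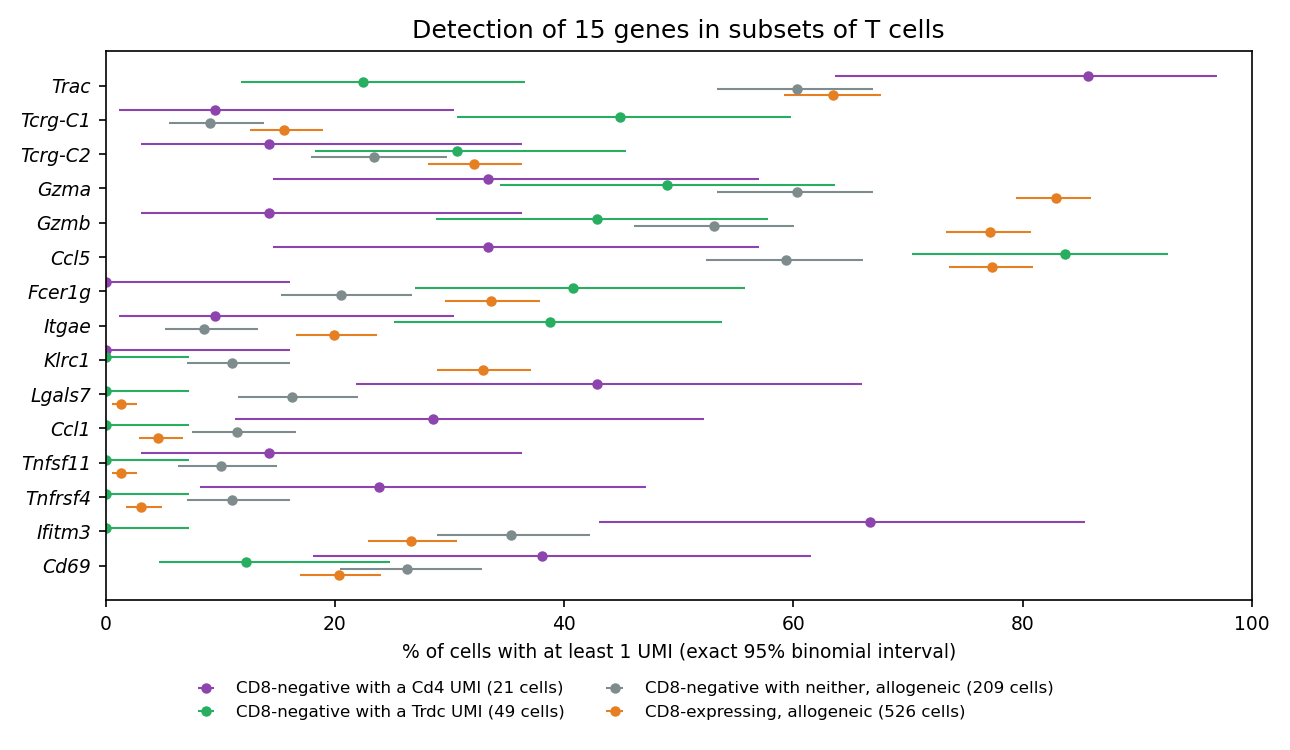
Percent of cells with a UMI of each of 15 genes in Cd4-positive members (21 cells), Trdc-positive members (49 cells), allogeneic members with neither (209 cells) and allogeneic CD8-expressing T cells (526 cells). Gzma was captured in 33.3% of Cd4-positive members and 82.9% of CD8-expressing cells, and Lgals7 in 42.9% of Cd4-positive members and no Trdc-positive member.

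Allogeneic members were also set against syngeneic members, which asks how the class differed with the transplant. Of 1267 genes tested, edgeR called 0 (0.0%), with 95 at an unadjusted p under 0.05, and DESeq2 called 4 (S100a6, Ifitm3, Ccl1 and Lgals1). Without allogeneic 1 edgeR called 70, and without each of the other libraries 7 to 12. The comparison rests on 27 and 38 syngeneic cells, and the genes below were chosen after their values were seen. Ifitm1, Ifitm2 and Ifitm3, related interferon-inducible membrane genes, had no UMI in the members of either syngeneic library. Ifitm3 reached 559 and 1664 CPM in allogeneic members, at least 16.5-fold higher when the syngeneic group is set to 3 counts, and the bounds were 18.8-fold for Ifitm1 and 17.0-fold for Ifitm2. By the same bound Ccl1 was at least 10.1-fold and Lgals7 at least 7.98-fold higher. S100a6, a calcium-binding protein gene, stood at 108, 35.3, 618 and 2480 CPM (log2 difference 4.56, edgeR adjusted p = 0.148), and Lgals1, galectin-1, at 0, 35.3, 769 and 2036 (5.97, edgeR adjusted p = 0.125). In each of these the allogeneic libraries lay above both syngeneic ones, and how many of the 1267 genes tested did so was not counted. CD8-expressing cells had the same order, with Ifitm1 at 0, 0, 952 and 2637 CPM and Lgals1 at 0, 98.3, 1209 and 1592.

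No gene described next passed the test between allogeneic and syngeneic members. Itgae, the integrin chain that binds E-cadherin, stood at 702, 671, 204 and 24.2 CPM (-2.50, edgeR adjusted p = 0.45), and Fcer1g at 1135, 2223, 704 and 145 (-1.95, edgeR adjusted p = 0.485). Ccl5 was at 18911, 26858, 13657 and 2666 (-1.46), Trdc differed by -1.62 (edgeR adjusted p = 0.671), Tyrobp by -2.16 (edgeR adjusted p = 0.674) and Gzma by -0.99 (edgeR adjusted p = 0.726). For Itgae, Fcer1g and Ccl5 both allogeneic libraries lay below both syngeneic ones, and allogeneic 2 was the lowest in each. The share of all 1267 genes tested that separated the groups was not counted, so this order adds nothing to the values. CD8-expressing cells had Itgae at 628, 491, 293 and 35.5 CPM, in the same order of groups. Itgae (-0.14) and the gut-homing receptor Ccr9 (0.88, edgeR adjusted p = 0.223) did not pass between members and CD8-expressing cells over the 4 libraries either, nor did Fcer1g (-0.19), Tyrobp (0.34) or Klrd1. Whether the difference between the classes itself changed with the transplant was fitted for 2200 genes, and edgeR called 0 (0.0%), with 119 at an unadjusted p under 0.05.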

How the data were processed

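The deposited files hold raw UMI counts per gene and barcode, in 1 matrix per library. The authors made these counts with Cell Ranger 2.1.1 on the mm10 genome, per the submitters' processing notes, while the matrix headers name version 3.1.0. The deposited matrices held 16565 barcodes, and library totals were 14961466 to 26677842 UMIs. Barcodes were filtered as the report states, and Scrublet marked 135 kept barcodes (0.978%) as doublets, 1 of them a member; none was removed in the main values.

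Counts were summed per library and class and tested with edgeR 4.0.16 (robust quasi-likelihood test, TMM, filterByExpr, library as a block for class contrasts, Benjamini-Hochberg adjustment, threshold 0.05) in R 4.3.3. The 9 genes of the rule counted in library sizes but were not tested. Both classes of 1 library come from the same pool of mice, so the library pairs them. DESeq2 1.42.0 was an alternative. Each SE given with an edgeR log2 difference was derived as the size of that difference divided by the square root of the test's F statistic. It is therefore not a separate estimate of spread. The procedure was tested on simulated data. Members and gene lists were chosen with earlier results of these data known. Named genes were list members past the threshold, up to 10 genes in each direction by size of the difference (at least 10 UMIs, same sign in both allogeneic libraries), and a fixed set always described; a few of these are not reported here. Nothing says that libraries came from separate experiments. The p-values between transplant groups measure the spread between these libraries, which may be technical. Those of class contrasts measure the spread of the class difference between the libraries, which may be technical too.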

Additional observations from a re-analysis of the deposited data

Results flagged for a closer look

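T cell barcodes without a Cd8 UMI but with an Epcam UMI, which the rule left out, made up 0.532% of kept barcodes in allogeneic 1 and 0.305% in allogeneic 2. They were singled out because these barcodes enter no comparison and both shares lie above those of the control libraries, 0.264% in syngeneic 1 and 0.218% in syngeneic 2. They were 8, 6, 13 and 17 barcodes, with a median of 4765, 915.5, 2018 and 4470 UMIs, and Scrublet marked 1, 0, 4 and 2 of them.

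Cbx3, a gene of a heterochromatin protein, was singled out because the classes differed in opposite directions in the transplant groups. Its level was 324, 212, 112 and 242 CPM in members and 126, 182, 245 and 432 in CD8-expressing cells. The syngeneic levels rest on 12 UMIs in members and 17 in CD8-expressing cells, summed over both libraries. The mean log2 ratio of members to CD8-expressing cells was 0.79 over the syngeneic and -0.98 over the allogeneic libraries. The difference between the groups was not called by edgeR (interaction -1.52 on the log2 scale, adjusted p = 0.831).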

How the results depend on the processing

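The 21 genes called between members and CD8-expressing cells over 4 libraries became 1 with DESeq2 (54 at an unadjusted p under 0.05), 47 with no filter on low counts, 11 among cells of at least 1000 UMIs, 49 when the CD8 class needed at least 2 Cd8 UMIs and 68 in the allogeneic libraries alone. With no replicate block, so without pairing the classes within a library, edgeR called 0 (24 at an unadjusted p under 0.05). Leaving out 1 library gave 0 to 52 calls: 0 without allogeneic 1 (60 at an unadjusted p under 0.05), 4 without allogeneic 2, 52 without syngeneic 1 and 40 without syngeneic 2. The 68 genes of the allogeneic libraries became 6 with DESeq2 and 0 without the block (60 at an unadjusted p under 0.05). The 0 calls between allogeneic and syngeneic members became 4 with DESeq2, 24 with no filter, 70 without allogeneic 1 and 12, 7 and 7 without syngeneic 1, syngeneic 2 and allogeneic 2, a range of 7 to 70 in fits that assume the lone sample of a group varies like the others; the cause was not tested. The class difference in the share with a Trdc UMI reversed to -0.98 percentage points when cells were thinned to 2000 UMIs, which left 1, 16 and 13 members in the libraries that had any. No named gene changed direction under any alternative that gave it a value. The other alternatives run (RLE normalization, 3 receptor UMIs, a mitochondrial limit of 10%, doublets left out, cells with an epithelial UMI left out, the last chosen after seeing the data) gave 18 to 31 calls over the 4 libraries.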
